A study of Mus musculus with 6 samples.

Results

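The genes described here are 10 chemokines and chemokine receptors that draw T cells into tissue or hold cells in place. They are the CXCR3 ligands Cxcl9, Cxcl10 and Cxcl11 with their receptor Cxcr3, Ccl5, the pair Cxcl16 and Cxcr6, the pair Cxcl12 and Cxcr4, and Cxcl14. Members were found by gene name: every non-control probe that the array files name for one of these genes was used. This gave 15 probes for all 10 genes, out of 55681 probes and 34844 gene names. Genes with more than 1 probe are given probe by probe.

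RNA came from inguinal fat, the depot beneath the skin of the groin, of male C57BL/6J mice and was measured on 1-colour Agilent arrays, with 3 arrays titled DIO_CR_WR and 3 titled DIO. Mice of both groups were 2 months old at the start. DIO_CR_WR mice were given food with 60% of its energy as fat for 1 month. Their calories were then limited for about 3 weeks, until their weight matched that of chow-fed mice of their age, and free feeding on the fatty food followed until the tissue was taken. DIO mice had chow, with 6% fat, in the first phases and the fatty food in the last one. Both groups were therefore eating the fatty food when the fat was removed. In the treatment text the name DIO belongs to the weight-regain mice instead, and the sample titles were followed here. Ages are labelled 9, 10 and 11 months for DIO_CR_WR and 6, 7 and 8 months for DIO, so they do not overlap between the groups and increase in steps of 1 month along the order of the samples. Nothing in the labels says that each sample was 1 mouse, and p-values measure the spread between these samples.

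Chemokines are small secreted proteins that guide white blood cells along a gradient through receptors coupled to G proteins. CXCL9, CXCL10 and CXCL11 are switched on by interferons and attract activated T cells and NK cells through CXCR3. CCL5 and the membrane-bound CXCL16 act on effector and tissue-resident T cells, CXCL16 through CXCR6, whereas CXCL12 is made by stromal cells and keeps CXCR4-bearing cells in their niche. In obese fat these signals are known for their part in the entry of T cells and macrophages.

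The sequence before the start of a gene can be searched for short runs of letters that match control elements. Elements written in other letters are missed by such a search. RefSeq, on build GRCm38.p6, supplied the start region of 7 of the 10 members: Cxcl9, Cxcl10, Cxcr3, Cxcr6, Cxcl12, Cxcr4 and Cxcl14. The 250 bases before the start are shown for Cxcl10 and Cxcl9, neighbours on chromosome 5 that share the receptor CXCR3 but had unlike fold changes on these arrays, and for Cxcl14, which has a different set of matches. Sequences run from 5′ to 3′ on the gene's strand, and capitals mark matches on either strand to the interferon-stimulated response element core (GAAA, 2 bases of any kind, GAAA), the STAT-binding element (TTC, 3 bases of any kind, GAA) or the NF-kB element (GGGA, 4 bases of any kind, CC). The windows lie at chr5:92348890-92349139 for Cxcl10, chr5:92328080-92328329 for Cxcl9 and chr13:56296552-56296801 for Cxcl14, all on the minus strand.
Cxcl10: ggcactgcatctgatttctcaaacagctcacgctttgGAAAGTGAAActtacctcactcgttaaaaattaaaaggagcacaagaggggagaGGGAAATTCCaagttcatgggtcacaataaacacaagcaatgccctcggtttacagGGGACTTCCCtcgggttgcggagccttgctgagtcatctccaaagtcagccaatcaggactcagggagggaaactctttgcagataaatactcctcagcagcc
Cxcl9: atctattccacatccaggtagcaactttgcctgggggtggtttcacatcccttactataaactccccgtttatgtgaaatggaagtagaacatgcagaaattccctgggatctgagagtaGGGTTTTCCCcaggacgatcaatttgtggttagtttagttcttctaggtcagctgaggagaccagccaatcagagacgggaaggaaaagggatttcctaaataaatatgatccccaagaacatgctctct
Cxcl14: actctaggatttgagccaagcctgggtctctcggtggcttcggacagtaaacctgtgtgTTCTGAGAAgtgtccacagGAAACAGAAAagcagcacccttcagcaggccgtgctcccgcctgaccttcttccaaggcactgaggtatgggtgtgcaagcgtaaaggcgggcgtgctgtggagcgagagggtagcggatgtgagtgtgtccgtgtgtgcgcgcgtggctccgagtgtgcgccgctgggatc

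The Cxcl10 window held 1 match to the interferon element, starting at position -213 from the gene start, and 2 matches to the NF-kB element, starting at -159 and -103. In the Cxcl9 window there was 1 NF-kB match, on the opposite strand, at -130. The Cxcl14 window had 1 STAT match at -191 and 1 interferon match at -172. None of the matches in capitals overlap. Among 32851 windows of this length in the table, 2.98% held the interferon element, 7.02% the STAT element and 17.6% the NF-kB element. The windows of Cxcl12, Cxcr4, Cxcr3 and Cxcr6 held 0 matches to these 3 motifs, which says only that the letters are not in those bases. Cxcl12 had 5 matches to GGGCGG, the GC box, including 1 adjoining pair that shares a base, and this motif was in 32.7% of windows. A match is a run of letters and no evidence of binding, and its part in any fold change was not tested.

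Signals are given as a percent of the 75th percentile of the array's own probes, so that 100 is the brightness that 1 in 4 probes exceed. They were compared by limma's moderated test on the log2 scale, DIO_CR_WR over DIO. The 75th percentile itself was 6050 to 7126 units on DIO_CR_WR arrays and 4605 to 4991 on DIO arrays. Spots well above background made up 52.9% to 66.7% on DIO_CR_WR arrays and 69.1% to 79.7% on DIO arrays, and 0 spots were saturated. Negative control spots had an SD of 57.5 to 409 units on DIO_CR_WR arrays and 3.15 to 56.1 on DIO arrays. The lowest signal well above background, the background floor, was 90.3 to 369 units on DIO_CR_WR arrays and 29.3 to 57.4 on DIO arrays. The part of this unequal floor in the values of dim probes was not tested. Slide 1 carried all DIO_CR_WR arrays and DIO replicate 1, and slide 2 carried the other two DIO arrays. The fat cell genes Adipoq, Plin1 and Cidec were well above background on all 6 arrays. The median log2 fold change of all 38814 probes tested was -0.19 with this scaling and 0.31 when arrays were scaled to spike-in probes.

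Signals of Cxcl10, Cxcl16, Cxcr6, Cxcl14 and 1 of 2 Cxcl12 probes were higher on each DIO_CR_WR array than on any DIO array, with fold changes between 1.70 and 3.62. Cxcr3 and Ccl5 had similar fold changes of 2.02 and 1.89 with overlapping arrays, and Cxcl9, Cxcr4 and the other Cxcl12 probe overlapped with log2 fold changes of 0.43 or less. Cxcl11 had log2 fold changes of -0.39 and -0.07. Of the 14 member probes tested, 0 passed an adjusted p of 0.05 (limma, Benjamini-Hochberg), against 0% of all probes, and the smallest adjusted p was 0.124 among members and 0.119 among all probes. Without adjustment, p was under 0.05 for 6 member probes on the higher side and 0 on the lower, where the shares of all probes were 5.32% and 20.7%. Arrays did not overlap for 6 member probes on the higher side and 1 on the lower, against 7.3% and 25.7% of all probes. The median log2 fold change of the 14 probes was 0.78, which is 0.97 above that of all probes, and 13 of the 14 lay above the all-probe median, above which 50% of probes lie by definition. Members were chosen with earlier results of these data known, and some genes count by more than 1 probe, so these values are a description.

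**Figure D1:**
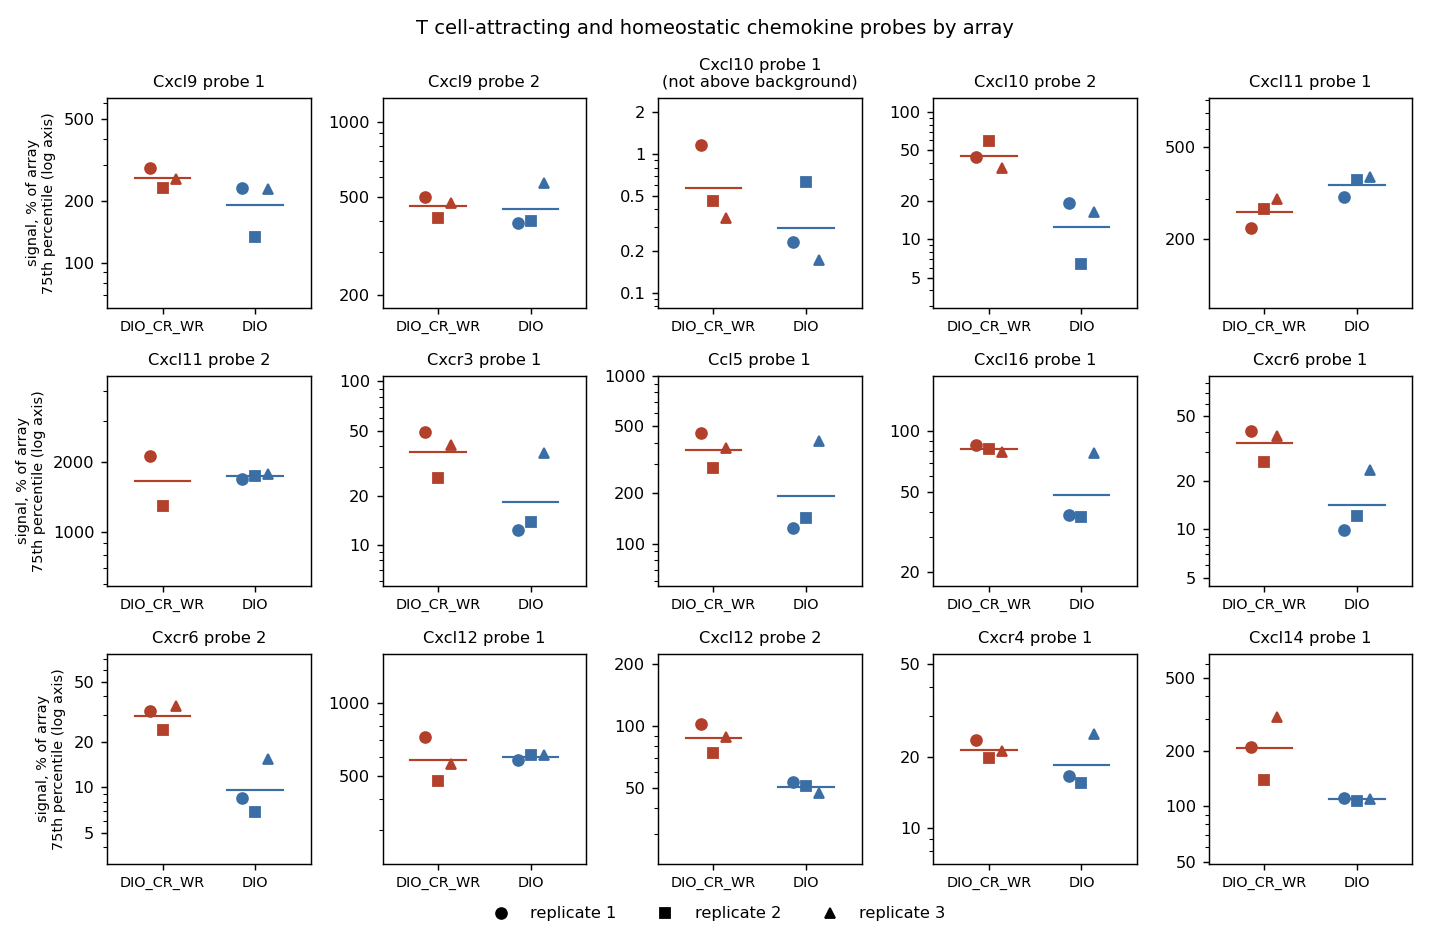
Signal of each of the 15 member probes on each array, as a percent of that array's 75th percentile on a log axis, with DIO_CR_WR left and DIO right in every panel. Symbols mark replicates 1, 2 and 3 and lines mark group means of log2 values. DIO replicate 3, the triangle, lies among the DIO_CR_WR arrays for Cxcr3 and Ccl5 and just below them for Cxcl16, and is well below them for Cxcl10 and Cxcl12 probe 2.

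CXCL10, an interferon-induced CXCR3 ligand made by many cell types, had the largest fold change of the member probes. Its probe 2, at chr5:92775781-92775840 (mm9, minus strand), gave 44.3%, 58.8% and 36.2% on the DIO_CR_WR arrays, against 19.2%, 6.39% and 16.3% on the DIO arrays. All DIO_CR_WR arrays were above all DIO arrays, and DIO replicate 2 was the lowest by a wide margin. The log2 fold change was 1.85 ± 0.44 (SE), a 3.62-fold higher signal (limma adjusted p = 0.128), larger than that of 99.5% of all probes tested. Without DIO replicate 2 it was 1.37, and without DIO replicate 1 it was 2.16 with an adjusted p of 0.0421, but the groups then lie on different slides and group and slide cannot be told apart. Within slide 1, where DIO replicate 1 is the sole DIO array, it was 1.25. Cxcl10 probe 1, at chr5:92776616-92776675, had 0.349% to 1.15% on DIO_CR_WR arrays and 0.172% to 0.628% on DIO arrays. It was well above background on 0 of 6 arrays and was not tested.

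Cxcl9, whose product is the CXCR3 ligand most dependent on interferon gamma, had smaller fold changes than Cxcl10 on both of its probes. Probe 1, at chr5:92752191-92752250, gave 289%, 232% and 257% on DIO_CR_WR arrays, against 232%, 134% and 229% on DIO arrays. DIO replicate 2 was again the lowest array, and DIO replicate 1 lay just above DIO_CR_WR replicate 2. This gave a log2 fold change of 0.43 ± 0.26 (adjusted p = 0.324), and of 0.15 within slide 1. Probe 2, 605 bases away, gave 500.0%, 409% and 473% on DIO_CR_WR arrays, against 393%, 397% and 569% on DIO arrays. Here DIO replicate 3 was the highest of the 6 arrays, and the log2 fold change was 0.04 ± 0.21 (adjusted p = 0.915), with a 95% interval of -0.46 to 0.54. Its value was 0.23 within slide 1.

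Because both ligands were read on the same arrays, their ratio is not altered by a scaling that shifts all probes of an array alike. The levels of 2 probes cannot be set against each other, but the change of their ratio between groups can, as far as arrays differ by such a uniform shift. Differences between arrays that depend on brightness can alter it. These ratios were chosen after the values had been seen, and their p-values, adjusted or not, do not account for that choice. The log2 ratio of Cxcl10 to Cxcl9 probe 1 was -2.70, -1.98 and -2.83 on DIO_CR_WR arrays, against -3.60, -4.39 and -3.81 on DIO arrays. The ratio was higher on DIO_CR_WR arrays in 9 of 9 array pairs, by 1.43 on the log2 scale or 2.69-fold (exact two-sided permutation p = 0.1, the smallest that 3 against 3 arrays allow, and 0.133 after adjustment over 4 ratios). With Cxcl9 probe 2 in its place the difference was 1.81, or 3.51-fold, with the same exact permutation p. Within slide 1 the differences were 1.10 and 1.02, and quantile normalization, which alters probes unequally, gave 1.41 and 1.69.

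CXCL11 binds CXCR3 and the scavenging receptor ACKR3. RefSeq lists mouse Cxcl11 as a transcribed pseudogene, so signals of this gene cannot be read as CXCL11 protein. Its probe 1, at chr5:92788640-92788699, gave 223%, 270.0% and 299.6% on DIO_CR_WR arrays, against 303%, 360.5% and 371% on DIO arrays. All 3 DIO_CR_WR arrays were below all DIO arrays, by a narrow margin between DIO_CR_WR replicate 3 and DIO replicate 1. The log2 fold change was -0.39 ± 0.18 (adjusted p = 0.228), -0.21 within slide 1, and 0.11 when arrays were scaled to spike-in probes. Relative to the median of all probes, which that scaling shifts alike, it was -0.20. Probe 2 starts 73 bases away. It gave 2120.3% and 1299% on DIO_CR_WR replicates 1 and 2, and 1692%, 1743% and 1781% on DIO arrays. Replicate 3 of DIO_CR_WR had an outlier flag and was left missing, and the fit with 2 against 3 arrays gave -0.07 ± 0.26 (adjusted p = 0.888), which also changed sign under other scalings.

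Cxcr3 encodes the receptor of CXCL9 and CXCL10 on activated T cells and NK cells. Its probe, at chrX:98926920-98926979, gave 49.2%, 25.5% and 40.7% on DIO_CR_WR arrays, against 12.3%, 13.7% and 36.3% on DIO arrays. DIO replicates 1 and 2 were well below every DIO_CR_WR array, whereas DIO replicate 3 lay among them. The log2 fold change was 1.02 ± 0.47, or 2.02-fold (adjusted p = 0.222), and 1.59 within slide 1. It ran between 0.73 without DIO replicate 1 and 1.51 without DIO replicate 3.

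Ccl5, also called RANTES, is made mainly by activated T cells and NK cells and attracts further T cells and monocytes. Its probe, at chr11:83339296-83339355, gave 456%, 281% and 374% on DIO_CR_WR arrays, against 124%, 141% and 408% on DIO arrays. As for Cxcr3, the first 2 DIO arrays were low and DIO replicate 3 was among the DIO_CR_WR arrays. The log2 fold change was 0.92 ± 0.48, or 1.89-fold (adjusted p = 0.264), 1.56 within slide 1, and 1.46 without DIO replicate 3.

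CXCL16 is held on the surface of macrophages and dendritic cells until ADAM10 or ADAM17 cuts it free, and CXCR6 is its receptor on effector and resident T cells. The Cxcl16 probe, at chr11:70267780-70267839, gave 85.8%, 81.5% and 79.3% on DIO_CR_WR arrays, against 38.4%, 37.8% and 78.2% on DIO arrays. The DIO_CR_WR arrays agreed closely with each other, and DIO replicate 3 lay just below them while the other two DIO arrays were far lower. DIO_CR_WR over DIO, this is a log2 fold change of 0.76 ± 0.31, or 1.70-fold (adjusted p = 0.182). It was 1.10 within slide 1 and 1.11 without DIO replicate 3.

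Both Cxcr6 probes had larger fold changes than the Cxcl16 probe. Probe 2, at chr9:123720709-123720768 on the plus strand, gave 31.8%, 24.0% and 34.7% on DIO_CR_WR arrays, against 8.43%, 6.87% and 15.2% on DIO arrays. Probe 1 begins 10 bases further on and overlaps probe 2, so the pair is no independent evidence. It gave 40.5%, 26.0% and 37.8% on DIO_CR_WR arrays, against 9.88%, 12.2% and 23.3% on DIO arrays. On both probes the groups did not overlap and DIO replicate 3 was the highest DIO array. The log2 fold change was 1.63 ± 0.33 on probe 2, a 3.11-fold difference with the smallest adjusted p of any member (0.124), and 1.28 ± 0.36 or 2.42-fold on probe 1 (adjusted p = 0.136). Within slide 1 it was 1.82 on probe 2 and 1.79 on probe 1.

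Cxcl12, the stromal ligand that retains CXCR4-bearing cells, was read by 2 probes 6201 bases apart with unlike fold changes. Probe 2, at chr6:117125026-117125085 on the plus strand, is annotated in the array files to a different RefSeq transcript from probe 1, at chr6:117131227-117131286. Probe 2 gave 102%, 73.7% and 88.4% on DIO_CR_WR arrays, against 53.5%, 50.9% and 47.2% on DIO arrays. Every DIO_CR_WR array was above the DIO arrays, which lay close together, and the log2 fold change was 0.79 ± 0.18 or 1.73-fold (adjusted p = 0.125). Probe 1 gave 724%, 478% and 559.8% on DIO_CR_WR arrays, against 579%, 612% and 610.1% on DIO arrays. DIO_CR_WR replicate 1 was the highest and replicate 2 the lowest of the 6, and the log2 fold change was -0.05 ± 0.20 with a 95% interval of -0.52 to 0.42 (adjusted p = 0.883).

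The ratio of the 2 Cxcl12 probes was also chosen after the values had been seen, with the same limit on its p-values. The log2 ratio of probe 2 to probe 1 was -2.82, -2.70 and -2.66 on DIO_CR_WR arrays, against -3.43, -3.59 and -3.69 on DIO arrays. It was higher on DIO_CR_WR arrays in 9 of 9 pairs, by 0.84 on the log2 scale or 1.79-fold (exact two-sided permutation p = 0.1, adjusted 0.133). The gap between groups was several times the spread within them, whose SD was 0.08 in DIO_CR_WR and 0.13 in DIO (n = 3 each). Leaving out 1 array at a time gave 0.78 to 0.91, and within slide 1 the difference was 0.71. Quantile normalization gave 0.59, and 0.61 after normexp background correction. For the overlapping Cxcr6 probes the same measure was 0.36 (exact permutation p = 0.2), with 8 of 9 pairs higher.

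**Figure D2:**
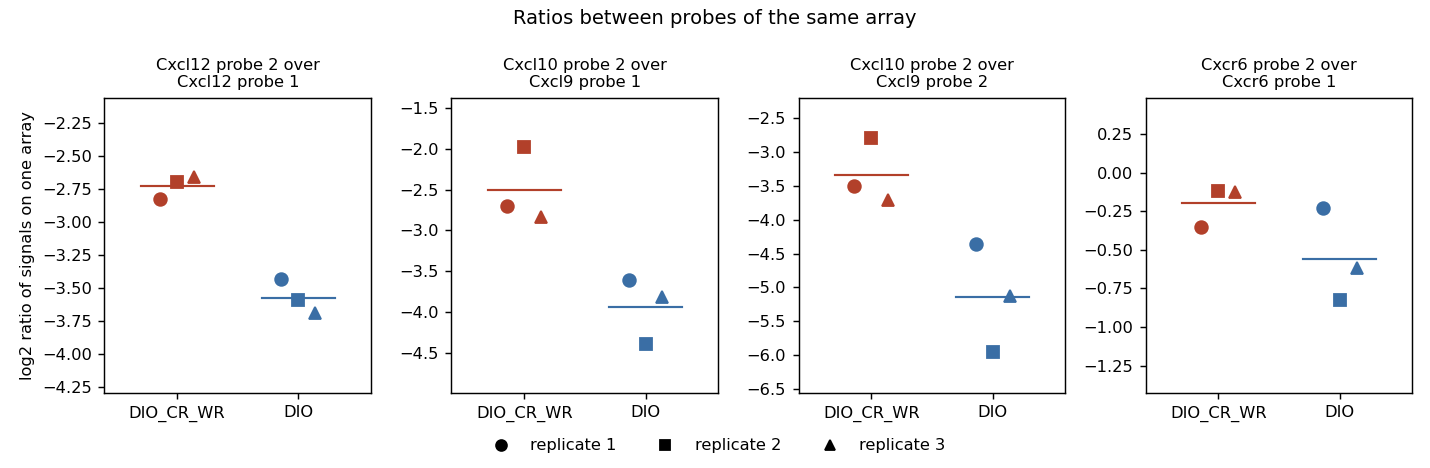
Log2 ratio between 2 probes on the same array, DIO_CR_WR left and DIO right in each panel, with 1 point per array and a line at the group mean. The 3 ratios of Cxcl12 and of Cxcl10 to Cxcl9 do not overlap between groups, and the ratio of the overlapping Cxcr6 probes does.

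Cxcr4 encodes the CXCL12 receptor, which is found on most white blood cells and many progenitors. Its probe, at chr1:130485079-130485138, gave 23.7%, 19.8% and 21.4% on DIO_CR_WR arrays, against 16.6%, 15.6% and 25.1% on DIO arrays. The highest of the 6 was DIO replicate 3, and the log2 fold change of 0.21 ± 0.23 (adjusted p = 0.576) had a 95% interval of -0.33 to 0.75. Ackr3, the scavenging receptor of CXCL12 and CXCL11, had a log2 fold change of 0.14 ± 0.22 (adjusted p = 0.718).

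Cxcl14 encodes a chemokine made steadily by epithelial and stromal cells and by fat tissue. Its probe, at chr13:56390078-56390137, gave 212%, 139.7% and 309.7% on DIO_CR_WR arrays, against 111%, 107% and 109.9% on DIO arrays. The DIO arrays were nearly equal and the DIO_CR_WR arrays were spread out above them, the reverse of the pattern for Cxcl16. The SDs of the log2 signal were 0.57 in DIO_CR_WR and 0.03 in DIO (n = 3 each). On average the signal was 1.91-fold higher, a log2 fold change of 0.93 ± 0.29 (adjusted p = 0.142). It was 0.65 without DIO_CR_WR replicate 3, 1.23 without DIO_CR_WR replicate 2 and 0.91 within slide 1.

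**Figure D3:**
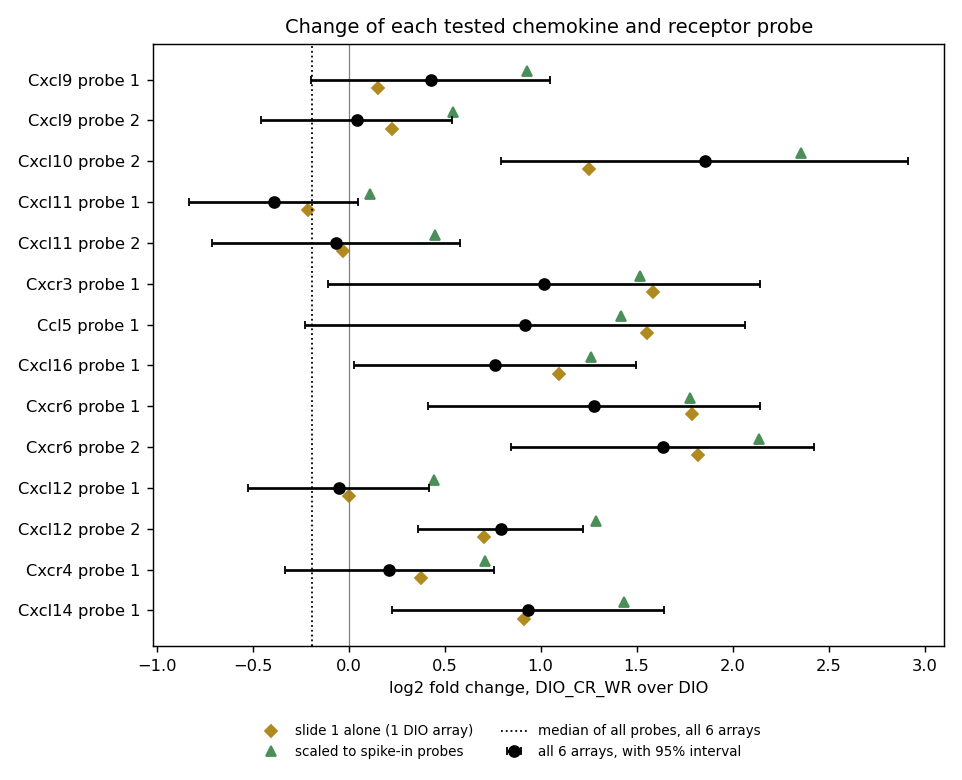
Log2 fold change, DIO_CR_WR over DIO, of the 14 tested member probes with its 95% interval, beside the value within slide 1 and the value after scaling to spike-in probes. The dotted line is the median of all probes, -0.19. Cxcl10, Cxcr6, Cxcl12 probe 2, Cxcl14 and Cxcl16 have intervals above 0, and slide 1 alone gives higher values for Cxcr3, Ccl5, Cxcl16 and Cxcr6 and a lower one for Cxcl10.

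With slide as a block in the model, unadjusted p was under 0.05 for 4 member probes on the higher side and 0 on the lower, where the shares of all probes were 4.43% and 5.63%. The 4 were Cxcl16, both Cxcr6 probes and Cxcl12 probe 2. In the block model Cxcl10 had the same log2 fold change as within slide 1, 1.25, at an unadjusted p of 0.079. The age labels follow the order of the samples, while the protocol describes mice of the same age, so a model with age may not adjust for true age. With labelled age as a covariate, the log2 fold change was 2.25 for Cxcl10, 1.08 for Cxcl12 probe 2, 0.90 for Cxcr6 probe 2, 0.42 for Cxcr6 probe 1 and 0.54 for Cxcl14. In that model it was 0.05 for Cxcr3, -0.16 for Ccl5 and 0.08 for Cxcl16, the genes for which DIO replicate 3, with the highest age label of its group, stood near the DIO_CR_WR arrays. The log2 fold change of Cxcl11 probe 1 was -0.93 there (limma, unadjusted p = 0.024), and the median of all probes was -0.40.

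Arrays of a group also differed among themselves. The median SD of the log2 signal over the 14 probes was 0.29 in DIO_CR_WR and 0.41 in DIO, where that of all probes tested was 0.22 in DIO_CR_WR and 0.29 in DIO. DIO replicate 3 was the highest DIO array for 9 of the 14 probes, and DIO_CR_WR replicate 1 the highest of its group for 10. These counts describe the arrays and were not tested.

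In whole tissue, more cells of a type and more RNA per cell cannot be told apart, so marker genes of the cells that carry these receptors are given beside them. For each gene the brightest probe was taken, and an unadjusted p under 0.05 was reached by 5.3% of all 26353 gene names on the higher side and by 21% on the lower side. Counts in the lists below use this p, and 0 genes of any list passed an adjusted p of 0.05. Among T cell markers 14 of 15 were measured, 7 were higher and 0 lower, and their summed signal was 285% to 452% on DIO_CR_WR arrays against 178% to 340.3% on DIO arrays. The defining markers Cd3e, Cd3d and Cd3g were above background on all 6 arrays. Cd3g, which encodes the CD3 gamma chain, had 41.5%, 21.6% and 26.8% on DIO_CR_WR arrays, against 7.25%, 7.64% and 15.4% on DIO arrays, so DIO replicate 3 was the highest of its group here too.

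Among NK cell markers 10 of 10 were measured, 6 were higher and 0 lower, with sums of 337% to 395% on DIO_CR_WR arrays and 168% to 308% on DIO arrays. Gzma, a granule protease of killer cells, gave 66.5%, 80.4% and 63.7% on DIO_CR_WR arrays, against 25.8%, 30.3% and 65.9% on DIO arrays. As for Ccl5, DIO replicates 1 and 2 were low and DIO replicate 3 was among the DIO_CR_WR arrays. Macrophage markers were all measured, with 2 of 11 higher and 0 lower, and sums of 7085% to 7774% on DIO_CR_WR arrays and 5235% to 9286% on DIO arrays. The part of T cells, NK cells and macrophages in the values of Cxcr3, Ccl5, Cxcl16 and Cxcr6 was not tested.

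Inguinal fat encloses a lymph node, so its stroma was examined as well. Of 8 markers of lymph node stroma and high endothelial venules 6 were measured, with 3 higher and 1 lower, and sums of 598% to 877% on DIO_CR_WR arrays and 382% to 473% on DIO arrays. The higher ones were the node chemokines Cxcl13 and Ccl19 and the follicular gene Fdcsp, and the lower one was Chst4, a sulfotransferase of high endothelial venules. Glycam1, the mucin that marks these venules, was well above background on 0 DIO_CR_WR arrays and 2 DIO arrays and was not tested. The sum was highest on DIO_CR_WR replicate 3, which was also the highest array for Cxcl14, and its part in the values of Cxcl12 and Cxcl14 was not tested.

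**Figure D4:**
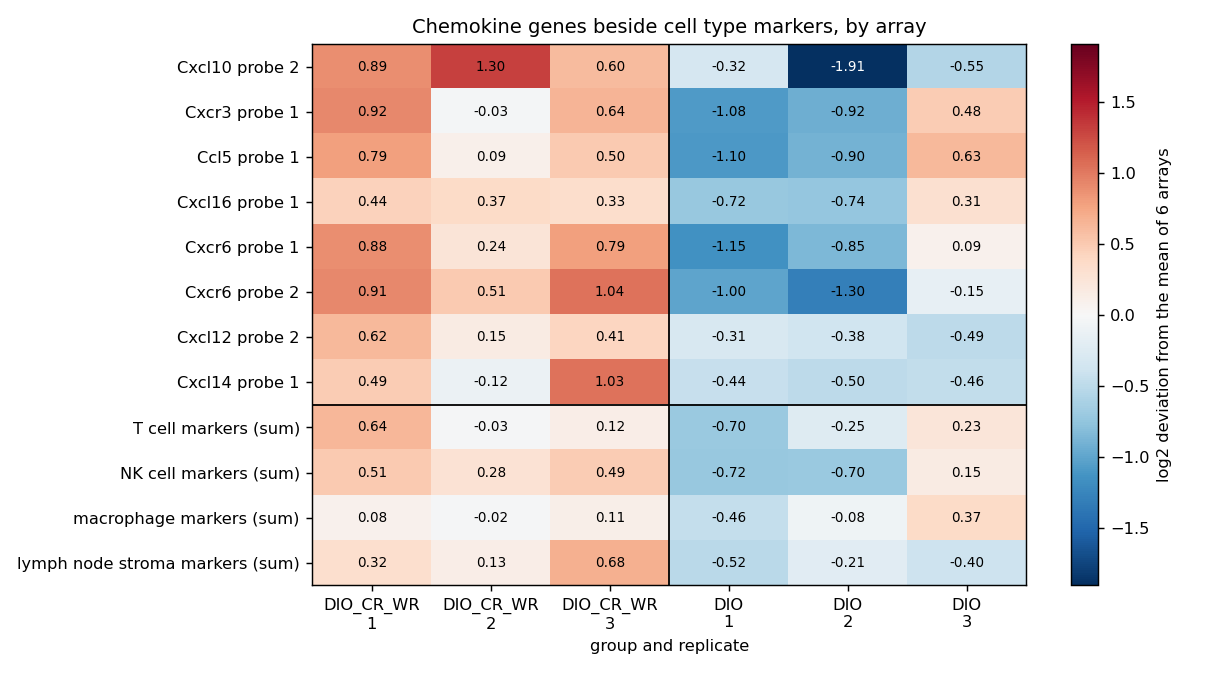
Deviation of each array from the mean of the 6 arrays on the log2 scale, for 8 member probes above the line and the summed signal of 4 marker lists below it, with DIO_CR_WR arrays left of DIO arrays. DIO replicate 3 is above the mean for Cxcr3, Ccl5, Cxcl16 and the T cell, NK cell and macrophage sums, and below it for Cxcl10, Cxcl12 probe 2, Cxcl14 and the lymph node stroma sum.

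Among the inducers of CXCR3 ligands, interferon and NF-kB signalling genes, 17 of 18 were measured, with 2 higher and 1 lower. Their median log2 fold change was 0.07. The median of all 26353 gene names, by the brightest probe, was -0.20, and the medians of the lists that follow stand against the same value. Ifng, which encodes interferon gamma, gave 4.68%, 6.63% and 6.64% on DIO_CR_WR arrays, against 1.28%, 1.26% and 2.28% on DIO arrays. The groups did not overlap, though the gene was dim, and well above background on 2 of 3 DIO_CR_WR arrays (log2 fold change 1.93 ± 0.29, adjusted p = 0.119). The background floor was higher on DIO_CR_WR arrays, and its part in the difference of Ifng was not tested. Il18, which encodes a cytokine that stimulates interferon gamma release, had 1.34 ± 0.36 (adjusted p = 0.134) and 0.49 within slide 1. Ifngr2, a chain of the interferon gamma receptor, had -0.39 ± 0.15 (adjusted p = 0.178).

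Receptors that share ligands with these chemokines, or that scavenge them, were measured for 8 of 8 genes, with 3 higher and 0 lower and a median of 0.40. Among the higher ones were Ackr1, which binds many chemokines on venules and red cells, at a log2 fold change of 0.68 ± 0.18, and Ccr1, a receptor of inflammatory chemokines, at 0.66 ± 0.23 (adjusted p = 0.134 and 0.155). Of 10 proteases that shed or trim chemokines 9 were measured, with 2 higher, 1 lower and a median of 0.26. Adam10, which sheds CXCL16, had a log2 fold change of 0.76 ± 0.27, but 0.21 within slide 1, and Adam17 had 0.26 ± 0.17 (adjusted p = 0.157 and 0.355). The gelatinase gene Mmp2, whose product cleaves CXCL12, had 0.70 ± 0.23, but 0.31 within slide 1, and Elane, neutrophil elastase, had -0.84 ± 0.24 and was well above background on 1 of 3 DIO_CR_WR arrays.

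Heparan sulphate proteoglycans hold chemokines on cell surfaces. Their core proteins and the enzymes of their sugar chains were measured for 12 of 12 genes, with 2 higher, 0 lower and a median of 0.25. The higher ones were Hpse, the heparanase that cuts the sugar chains, at 1.23 ± 0.36, and the core protein Sdc4 at 1.16 ± 0.46. Within slide 1 the values were 0.43 and 0.16. Signalling genes below chemokine receptors were measured for 17 of 17, with 3 higher, 0 lower and a median of 0.19. They were Rgs18, a regulator of G proteins, at 0.74 ± 0.27, Elmo1, part of the complex that activates Rac, at 0.71 ± 0.26, and Rac2, the Rac of blood cells, at 0.62 ± 0.25. Elmo1 was dim, and well above background on 2 of 3 DIO_CR_WR arrays, where the background floor was higher.

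Other chemokines and receptors of lymphocyte homing were measured for 15 of 20 genes, with 5 higher, 3 lower and a median of 0.08. Xcl1, made by NK cells and CD8 T cells, gave 25.9%, 19.5% and 19.2% on DIO_CR_WR arrays, against 4.88%, 4.48% and 8.95% on DIO arrays. Every DIO_CR_WR array was above the DIO arrays, with a log2 fold change of 1.88 ± 0.30 (adjusted p = 0.119). Ccl19, which guides CCR7-bearing cells to lymph node T zones, had 0.86 ± 0.15, and Cxcl13, which draws B cells into follicles, had 1.70 ± 0.39 (adjusted p = 0.119 and 0.126).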

How the data were processed

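Each of the 6 arrays held 62976 spots. The deposited values are spot intensities from Agilent Feature Extraction (10.7.3.1 per the file headers, 10.7.1.1 per the submitters' processing notes), which subtracted a local background and corrected a spatial trend within each array, with no scaling between arrays, per the file headers. The deposited files also hold other columns, flags of 0 or 1 that mark spots as well above background, saturated or outlying. A deposited table that covers all samples, whose 18 value columns match the sample titles ambiguously, was not used.

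The fits were made in limma 3.58.1 under R 4.3.3. After removal of 3671 control spots, outlier spots were treated as missing, and spots of 1 probe were averaged as log2 of the deposited intensity. Each array's 75th percentile over non-control probes was then subtracted. Probes entered the test when 3 or more of the 6 arrays were well above background and there were values on at least 2 arrays of each group, as for 38814 of 55681. DIO_CR_WR was compared with DIO by lmFit and eBayes, two-sided, with Benjamini-Hochberg adjustment over all probes. The number of arrays and the signal over background limit the precision.

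Named are all 10 members with every probe, from each of 6 lists of related genes up to 3 genes with the smallest unadjusted p (brightest probe per gene), from 12 cell type marker lists counts and sums, and for Cxcl10 and Cxcl12 the 3 genes with the most similar profile. A gene that the rule picked is not reported here. Adam17, Ackr3, Cd3g, Gzma and the lymph node genes were named outside this rule, after their values were seen. Members and lists were chosen with earlier results of these data known. Array files give probe positions on mm9, and RefSeq promoters are on GRCm38.p6. Alternatives covered background correction, scaling, filters, the probe used per gene, the variance model, replicate number, slide, age and single arrays, and ratios within arrays were added after seeing the data. The model was tested on simulated data.

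The titles number replicates 1 to 3 in both groups, with no pairing stated, so numbers were not taken as pairs. Correlations across probes of the deviations from group means were 0.00, -0.13 and -0.21 between same-numbered arrays. Between the rest they ranged over -0.08 to 0.22. Deviations within a group of 3 arrays depend on each other, so these correlations cannot settle whether the numbers are pairs.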

Additional observations from a re-analysis of the deposited data

How the results depend on the processing

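With 3 arrays a group, 0 member probes passed an adjusted p of 0.05 in limma, and 6 had an unadjusted p under 0.05. Scaling to spike-in probes gave 6 probes past the adjusted threshold among all probes and 10 member probes higher at an unadjusted p under 0.05, where 20.7% of all probes were higher. Testing only probes well above background on all 6 arrays gave 47 among all probes, with 0 members. Without the filter on dim probes, 5 member probes were higher unadjusted, where 14.1% of all probes were higher and 11.4% lower. A trended and robust variance gave 1 member probe lower. Age as a covariate gave 1 member probe higher and 1 lower, where 4.70% of all probes were higher and 19.0% lower, with a median difference from all probes of 0.59, and the age labels follow the order of the samples. Leaving out 1 array at a time gave 0 to 5377 probes past the adjusted threshold among all probes, 0 to 1 among members, 5 to 9 members higher and 0 to 1 lower unadjusted, and a median difference of 0.80 to 1.11. In these fits 3.01% to 8.74% of all probes were higher and 8.67% to 27.4% lower. The highest counts past the adjusted threshold came without DIO replicate 1, when no slide held both groups, and the 9 without DIO replicate 3. With replicate number as a block, 0 probes passed the adjusted threshold and 5 member probes were higher and 0 lower unadjusted, which changed no adjusted call.

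The sign turned for probes with small log2 fold changes. Cxcl12 probe 1 was 0.10 with normexp and quantile normalization, 0.19 with quantile normalization, 0.039 with median centring, 0.45 with spike-in scaling, 0.17 with age, and -0.21 to 0.086 with 1 array left out, the highest without DIO_CR_WR replicate 2. Cxcl11 probe 2 was 0.24, 0.33, 0.0092, 0.45 and 0.21 under the first 5 of these, and Cxcl11 probe 1 was 0.11 with spike-in scaling. With age, Cxcr4 was -0.12, Ccl5 -0.16 and Cxcl9 probe 2 -0.30. With 1 array left out Cxcl9 probe 2 ran between -0.051 and 0.22, and was below 0 without DIO_CR_WR replicate 1, DIO replicate 1 or DIO replicate 2. The cause was not tested. Over these alternatives, 18 single-probe values reversed and 1, Cxcl10 without DIO replicate 1, passed the adjusted threshold. Filters, the variance model and the replicate block leave the fold change of a probe with values on all arrays unaltered by construction.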

Other observations

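Fat tissue holds other white blood cells and support cells that answer to these chemokines, and their markers are counted here by an unadjusted p under 0.05, since 0 of them passed the adjusted threshold (limma). Dendritic cell markers, 8 of 8 measured, had 4 higher and 1 lower. Their summed signal was lower on every DIO_CR_WR array than on any DIO array, at 1212% to 1242% against 1266% to 1583%. A sum is weighted to the brightest genes, and the median log2 fold change of the 8 markers was 0.44, so the sum does not describe most of them. Itgax, the integrin CD11c, gave 124%, 195% and 145% on DIO_CR_WR arrays, against 48.1%, 64.9% and 106% on DIO arrays. The groups did not overlap, and DIO replicate 3 was again the highest of its group (log2 fold change 1.14 ± 0.33, adjusted p = 0.137). B cell markers, 7 of 9 measured, had 2 higher and 1 lower, and neutrophil markers, 9 of 9 measured, had 1 higher and 2 lower. Endothelial markers had 2 of 8 higher and 0 lower, and fibroblast and adipocyte progenitor markers 1 of 11 higher and 1 lower.

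Of 10 adipocyte markers 0 were higher and 3 lower, with summed signals of 14431% to 19632% on DIO_CR_WR arrays and 17075% to 21378% on DIO arrays. Skeletal muscle markers had 0 of 9 higher and 4 lower, with sums of 12036% to 14748% on DIO_CR_WR arrays and 17068% to 20945% on DIO arrays, and of 4 measured keratinocyte markers 0 were higher and 0 lower. Itgax and the lists' other genes named here were chosen after their values were seen.

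Over the 6 arrays, the log2 profiles most like Cxcl10 were those of Usp6nl, Pcdh12 and Cyp4f17, with Pearson correlations of 0.997, 0.994 and 0.993. For Cxcl12 probe 1, the brighter of its probes, they were Tmem174, Olfr547 and Nhlrc4, at 0.983, 0.980 and 0.979. These are the highest among all genes with a plain symbol over 6 shared arrays and are given as a description.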
